A study of Caenorhabditis elegans with 8 samples.

Results

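Transcripts of whole Caenorhabditis elegans hermaphrodites that lack the catalytic subunits of AMPK were compared between animals that had left dauer arrest and animals still in it. The strain was daf-2; aak(0); hzl-1, in which aak(0) denotes the missing function of aak-1 and aak-2 together, and it is called aak(0) here. It was collected as post-dauers at 192 h and as dauers at 96 h, with n = 2 libraries each, so 4 of the 8 libraries of the series carry the comparison. The other 4 libraries are post-dauers and dauers of daf-2; hzl-1 at the same times, n = 2 each. Every group carried the daf-2 and hzl-1 mutations, so no animal with functional daf-2 or hzl-1 was analysed here. The growth protocol names 25 °C for all animals, whereas the design text places the post-dauers 96 h after a shift to a permissive temperature. Of 46904 genes in the files, the 15365 with a mean of at least 1 FPKM over the 8 libraries were tested, 14539 of them protein-coding. FPKM is a fragment count corrected for transcript length and for the depth of the library. Just inside that limit lay 186 genes with a mean of 1 to 1.1 FPKM, and 230 genes lay just outside it with 0.9 to 1 FPKM. In 1831 of the tested genes, 1 of the aak(0) stages averaged under 1 FPKM, so such genes passed largely through the stage where they were high.

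Dauer is an arrested, non-feeding larval stage that worms enter when insulin, TGF-beta and steroid hormone signals are low. It has a thick specialised cuticle, a constricted pharynx, a metabolism turned toward stored fat and a germ line that does not divide. AMPK is a kinase that senses low cellular energy, and in C. elegans dauers it is known for slowing the use of stored fat and for holding the germ line quiescent. On recovery, animals feed, moult and become reproductive adults that make yolk, eggs, sperm and embryos.

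The 4 aak(0) libraries held 20654231 and 26984881 reads in post-dauers, against 23406260 and 25339749 reads in dauers. Reads of rRNA took 0.807% and 5.39% of post-dauer libraries, against 9.61% and 1.12% of dauer libraries. The dauer replicates agreed closely, with a Spearman correlation of 0.979 over genes and 2.14% of genes more than 2 times apart. The post-dauer replicates stood further apart, with a correlation of 0.934 and 15.7% of genes more than 2 times apart, 2120 genes (13.8%) being higher in replicate 1 and 286 (1.86%) in replicate 2. That gap followed gene length. Among the 3065 genes with at least 2175 nt of exon, post-dauer replicate 1 exceeded replicate 2 by a median of 0.51 on the log2 scale, while the 3071 genes of at most 670 nt had a median of 0. In the same long and short genes the dauer replicates differed by medians of -0.12 and -0.04. Genes were called higher in post-dauers in 19.5% of the longest class and in 27.9% of the shortest, and the part of the length difference in these calls was not tested. With post-dauer replicate 1 left out these shares were 15.4% and 26.8%, and with replicate 2 left out they were 35.2% and 26.5%. "Leave-out counts" below are numbers of called genes with post-dauer replicate 1, post-dauer replicate 2, dauer replicate 1 and dauer replicate 2 left out, in that order.

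**Figure D1:**
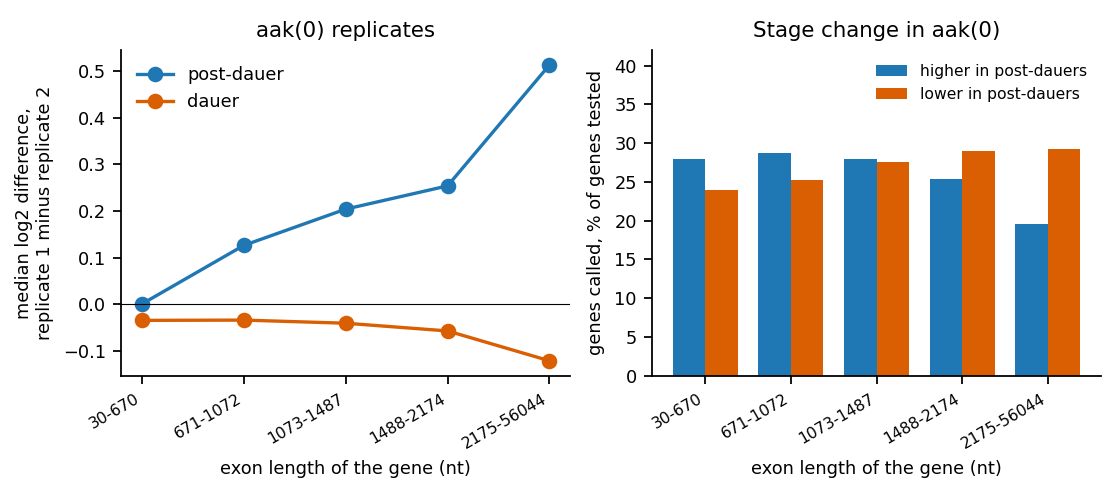
Left, median log2 difference between replicates (replicate 1 minus replicate 2) of the aak(0) post-dauers and dauers, in 5 classes of genes by exon length in nt. Right, the percentage of tested genes called higher or lower in post-dauers in the same classes. The post-dauer replicates diverge with length, to a median of 0.51 in the longest class, and the share called higher is lowest there, at 19.5%.

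Most tested genes changed between the stages. Of 15365 genes, 8130 (52.9%) were called by limma at an adjusted p under 0.05, 3975 (25.9%) higher and 4155 (27%) lower in post-dauers. Changes of more than 1 on the log2 scale were found in 6021 called genes, and changes of more than 3 in 331 higher and 507 lower genes. The values of the 2 stages did not overlap in 11908 of all tested genes (77.5%), which included every gene called by limma. In edgeR on recovered reads, 9350 of 17050 genes were called (54.8%). Of the limma calls, 7412 were also edgeR calls in the same direction and 0 in the opposite one. Leave-out counts were 8260, 8239, 5334 and 5004, and 4642 of the limma calls (57.1%) held in all 4. The authors' deposited table listed 8614 genes at an adjusted p under 0.05, 4043 higher and 4571 lower in post-dauers. The libraries' strand setting is not stated, and among named genes set-1, col-37, sip-1, tbh-1, his-24, nos-2 and col-2 share at least 10% of their exon length with a gene on the opposite strand.

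The largest rises and falls marked the adult and the dauer. Called genes with a gene name were ranked by the size of the fitted change, with a mean of at least 5 FPKM and at most 2 genes per name stem. The 6 that rose most were the yolk genes vit-5 and vit-2, the adult collagens col-119 and col-140 and the uterine genes ule-1 and ule-2. Under the same cap, the 6 that fell most were col-37, col-36, scl-12, grl-23, grl-20 and cut-1. They are genes of cuticle, of secreted proteins and of the ground-like family of cuticle-associated proteins. The cap left out the collagen genes col-40 and col-2, given below, which fell more than scl-12. Transcripts of vit-5 measured 1255 and 956.8 FPKM in post-dauers, against 1.14 and 0.08 FPKM in dauers (log2 9.49 ± 0.32, limma adjusted p = 3.24e-05). Those of col-119 measured 2734 and 2641 FPKM in post-dauers, against 19.36 and 0.05 FPKM in dauers (log2 9.18 ± 1.18, limma adjusted p = 0.0011). Dauer replicate 1 thus held more of these adult transcripts than replicate 2, and col-140 showed it too, with 2884 and 2922 FPKM in post-dauers, against 23.91 and 0.26 FPKM in dauers. Adult transcripts were not absent from replicate 2. The uterine lumen protein genes summed to 67.04 FPKM in dauer replicate 1 and 38.64 FPKM in replicate 2. At the other end, grl-23 measured 1.6 and 0.47 FPKM in post-dauers, against 1369 and 1482 FPKM in dauers (log2 -9.51 ± 0.75, limma adjusted p = 0.000215), and grl-20 measured 0.73 and 0.47 FPKM in post-dauers, against 1032 and 1022 FPKM in dauers (log2 -9.33 ± 1.8, limma adjusted p = 0.00528). No value of one stage came near the other in these genes.

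**Figure D2:**
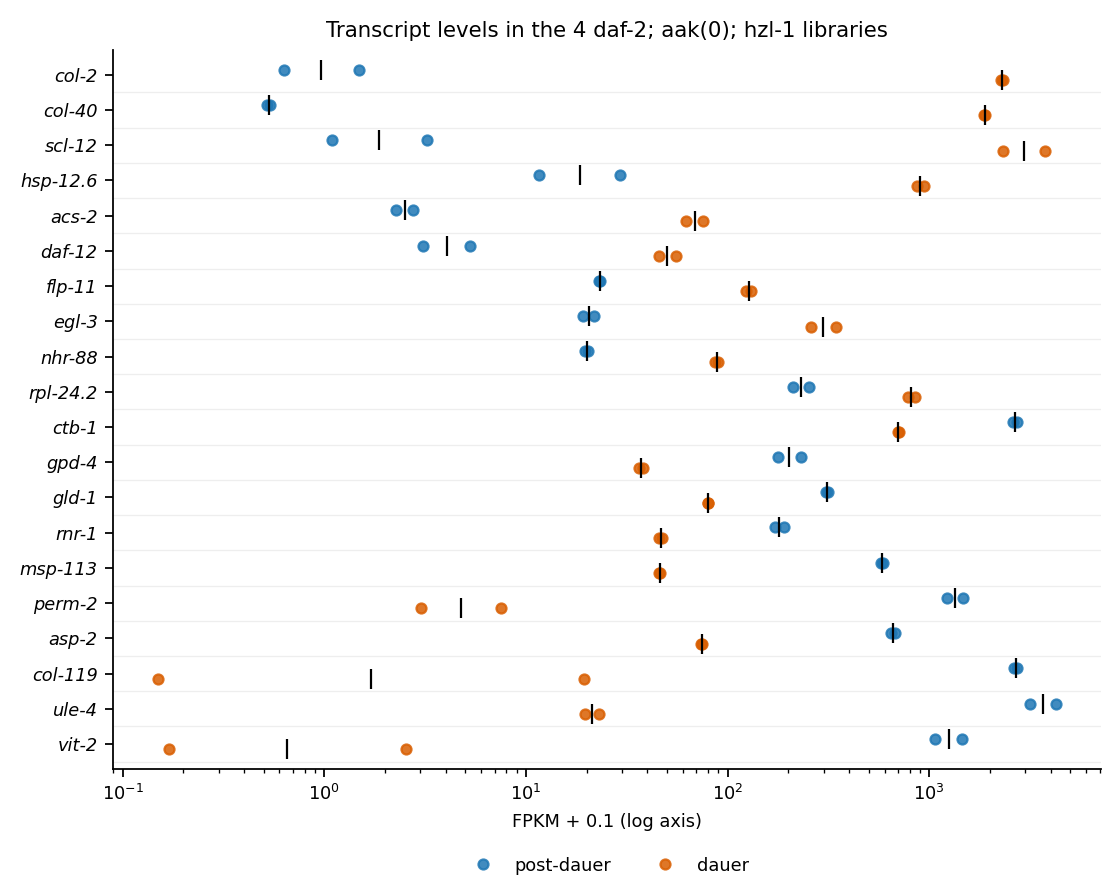
FPKM plus 0.1, on a log axis, of 20 named genes in the 4 aak(0) libraries, with 1 point per library and a tick at the mean of the log values. Post-dauers (upper points of each row) and dauers (lower points) do not overlap in any of the 20 genes. The same holds for every called gene and for 77.5% of all tested genes. In col-119 and vit-2 the dauer replicates lie far apart, at 19.36 and 0.05 FPKM and at 2.44 and 0.07 FPKM.

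AMPK itself is a trimer of a catalytic alpha, a beta and a gamma subunit. Transcripts of the mutated catalytic genes were still counted. A gene-level value does not show whether a transcript is intact, and the kind of lesion was not examined. For aak-2 (X:16796087-16803357, build WBcel235) the values were 9.85 and 9.4 FPKM in post-dauers, against 37.94 and 49.15 FPKM in dauers (log2 -2.06 ± 0.2, limma adjusted p = 0.000405). For aak-1 (III:8756995-8761101) they were 7.16 and 7.72 FPKM in post-dauers, against 14.71 and 9.99 FPKM in dauers, and the fall was not called (log2 -0.64 ± 0.24, limma adjusted p = 0.0593). The mutated hzl-1 (C44H9.4) stood at 3.28 and 0.49 FPKM in post-dauers, against 0.89 and 1.03 FPKM in dauers, and 1 post-dauer library was above and 1 below both dauers. It was not called (log2 0.37 ± 0.5, limma adjusted p = 0.573), but without post-dauer replicate 2 it was (log2 1.13, limma adjusted p = 0.0363). The receptor gene daf-2 measured 33.21 and 13.78 FPKM in post-dauers, against 36.15 and 37.24 FPKM in dauers and was not called (log2 -0.75 ± 0.37, limma adjusted p = 0.132). It was called lower without post-dauer replicate 1 (log2 -1.35, limma adjusted p = 0.00381) and with quantile normalization (log2 -0.88, limma adjusted p = 0.0263).

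Among the 14 genes of the AMPK subunits and the upstream PAR-4 (LKB1) complex, 2 rose and 6 fell, against 25.9% and 27% of all genes. Their median was -0.46 on the log2 scale, against 0.02 over all genes. The beta subunit gene aakb-1 measured 24.88 and 21.89 FPKM in post-dauers, against 73.95 and 91.06 FPKM in dauers (log2 -1.77 ± 0.2, limma adjusted p = 0.000683). Of the gamma subunit genes, aakg-4 measured 16.42 and 11.82 FPKM in post-dauers, against 64.22 and 77.41 FPKM in dauers (log2 -2.26 ± 0.25, limma adjusted p = 0.000633), and aakg-5 measured 33.7 and 36.29 FPKM in post-dauers, against 60.7 and 72.09 FPKM in dauers (log2 -0.9). All 3 were called lower, while the beta subunit gene aakb-2, at 33.57 and 44.42 FPKM in post-dauers, against 29.92 and 28.32 FPKM in dauers, and aakg-1, at 29.35 and 27.19 FPKM in post-dauers, against 31.49 and 37.41 FPKM in dauers, were not called. A low gamma gene, aakg-3, fell to 1.96 and 1.54 FPKM in post-dauers, against 4.42 and 4.26 in dauers. In the upstream complex, the MO25 gene mop-25.1 fell (log2 -0.69), whereas its relatives mop-25.2 (log2 0.7) and mop-25.3 (log2 0.95) rose. The kinase gene par-4 was at 44.67 and 28.52 FPKM in post-dauers, against 23.02 and 22.77 FPKM in dauers, and limma did not call it (log2 0.62 ± 0.24, limma adjusted p = 0.0702). Calls of aakg-3 and the 3 mop-25 genes were lost without either dauer replicate (adjusted p 0.0581 to 0.105), those of mop-25.2 and mop-25.3 also without post-dauer replicate 1, and par-4 was called without post-dauer replicate 2 (log2 0.93, limma adjusted p = 0.0135), in edgeR (log2 0.62, adjusted p = 0.032) and in DESeq2 (log2 0.78, adjusted p = 0.0165).

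The TOR kinase, which drives growth when nutrients are plentiful, had 4 of 13 pathway genes higher and 0 lower, against 25.9% and 27% of all genes. Its leave-out counts were 3, 8, 3 and 2 higher, and 2 genes were lower without post-dauer replicate 1. The kinase gene let-363 measured 24.16 and 4.65 FPKM in post-dauers, against 10.06 and 12.96 FPKM in dauers, and its partner daf-15 (Raptor) measured 35.03 and 6.95 FPKM in post-dauers, against 15.09 and 19.48 FPKM in dauers. For both genes, post-dauer replicate 1 lay above both dauers and replicate 2 below both. Neither was called, but without post-dauer replicate 1 both were called lower (log2 -1.14 and -1.19), and without replicate 2 both were called higher (log2 1.02 and 0.99). The direction of these 2 long genes therefore depended on 1 library.

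In the insulin pathway from receptor to FOXO, 4 of 17 genes rose and 4 fell, close to the 25.9% and 27% of all genes (leave-out counts 3, 5, 0 and 1 higher, and 7, 3, 3 and 3 lower). The FOXO factor gene daf-16, which drives dauer gene expression, measured 59.52 and 48.81 FPKM in post-dauers, against 108.5 and 117.6 FPKM in dauers (log2 -1.05 ± 0.17, limma adjusted p = 0.00242). Insulin-like peptides, the ligands, had 8 of 32 genes higher and 11 lower (leave-out counts 7, 8, 6 and 5 higher). The agonist gene ins-7 measured 35.98 and 28.98 FPKM in post-dauers, against 0.57 and 0.53 FPKM in dauers (log2 4.42 ± 0.22, limma adjusted p = 7.21e-05). The peptide gene ins-18, an antagonist of the receptor, measured 7.81 and 6.09 FPKM in post-dauers, against 65.08 and 84.23 FPKM in dauers (log2 -3.25 ± 0.22, limma adjusted p = 0.000147). The dauers were high in ins-18 and near 0 in ins-7, and the post-dauers held the reverse. Among others, ins-23 rose to 28.92 and 31.74 FPKM in post-dauers, against 2.09 and 0.96 in dauers, and ins-20 fell to 2.8 and 6.02, against 82.9 and 91.29.

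Every called gene in the hormone arms of dauer control was lower in the limma fit of all 8 libraries. The shares over all genes were 25.9% higher and 27% lower. In the dafachronic acid arm 36.4% of genes were called lower, which is not far from that share. In the TGF-beta and guanylyl cyclase arms, 0 of 9 genes rose and 5 fell (leave-out counts 5, 4, 4 and 2 lower). The SMAD gene daf-14 measured 20.44 and 11.31 FPKM in post-dauers, against 44.85 and 51 FPKM in dauers (log2 -1.59 ± 0.3, limma adjusted p = 0.00465). The TGF-beta ligand gene daf-7 was at 7.94 and 6.84 FPKM in post-dauers, against 12.25 and 10.08 FPKM in dauers and was not called (log2 -0.53 ± 0.26, limma adjusted p = 0.126). In the dafachronic acid arm, where a steroid turns the receptor DAF-12 from arrest to growth, 0 of 11 genes rose and 4 fell (leave-out counts 0, 2, 0 and 0 higher, and 5, 3, 3 and 3 lower). Transcripts of daf-12 itself measured 5.19 and 2.99 FPKM in post-dauers, against 45.64 and 55.18 FPKM in dauers (log2 -3.37 ± 0.27, limma adjusted p = 0.000225). Those of din-1, the corepressor partner of DAF-12, measured 29.79 and 14.95 FPKM in post-dauers, against 74.21 and 96.51 FPKM in dauers (log2 -1.95 ± 0.32, limma adjusted p = 0.00279). Both genes fell while the steroid-making enzyme gene daf-9 was at 1.25 and 1.23 FPKM in post-dauers, against 1.66 and 1.56 FPKM in dauers and was not called. Another enzyme gene of the hormone, daf-36, measured 19.68 and 4.92 FPKM in post-dauers, against 4.49 and 5.65 FPKM in dauers, with 1 post-dauer library high and 1 within the dauer range. It was called higher without post-dauer replicate 2 (log2 1.78, limma adjusted p = 0.0126), with quantile normalization (log2 1.31, limma adjusted p = 0.0327) and in DESeq2 (log2 1.28, adjusted p = 0.0165).

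Genes that mark the dauer body fell furthest. All 7 dauer cuticle genes fell, with a median of -9.05 on the log2 scale. The dauer collagen gene col-2 measured 1.38 and 0.53 FPKM in post-dauers, against 2332 and 2272 FPKM in dauers (log2 -10.24 ± 1.8, limma adjusted p = 0.00369), and col-40 measured 0.42 and 0.44 FPKM in post-dauers, against 1896 and 1869 FPKM in dauers (log2 -10.36 ± 1.68, limma adjusted p = 0.00267). The cuticlin gene cut-1, part of the ridges along the dauer flank, measured 0.2 and 0.15 FPKM in post-dauers, against 604.4 and 635.6 FPKM in dauers (log2 -9.05 ± 2.05, limma adjusted p = 0.00991). The dauers held at least 604.4 FPKM of these 3 genes and the post-dauers at most 1.38 FPKM. The cuticlin genes cut-6 (log2 -4.46) and cut-5 (log2 -3.14) and the matrix gene dex-1 (log2 -2.87) fell less. The leave-out counts of the list were 5, 5, 4 and 4. Calls of cut-5 and dex-1 were lost whichever of the 4 libraries was left out (adjusted p 0.0521 to 0.114), and that of cut-1 without either dauer replicate (adjusted p = 0.0552 and 0.0588). The collagen gene col-36, which is not in the list, lost its call the same way (adjusted p = 0.0563 and 0.0581). In these genes the 2 daf-2; hzl-1 dauers, which share the estimate of spread, were far apart, as in cut-1 with 0.55 and 272.1 FPKM.

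Secreted SCP-like proteins, small extracellular proteins of the CAP family, had 2 of 13 genes higher and 7 lower, and 0 higher without either dauer replicate. The shares over all genes were 25.9% higher and 27% lower. The gene scl-12 measured 3.12 and 0.99 FPKM in post-dauers, against 2319 and 3751 FPKM in dauers (log2 -10.01 ± 0.52, limma adjusted p = 7.46e-05). Its neighbours in name gave like values, with scl-11 at 2.69 and 2.48 FPKM in post-dauers, against 1491 and 1903 FPKM in dauers, and scl-13 at 2.41 and 0.71 FPKM in post-dauers, against 1050 and 1500 FPKM in dauers. All 3 stood at 1050 FPKM or more in dauers and at 3.12 FPKM or less in post-dauers. Unlike them, scl-2 was at 499 and 674.1 FPKM in post-dauers, against 176.2 and 217.6 FPKM in dauers, and limma did not call it (log2 1.56 ± 0.61, limma adjusted p = 0.0706), while edgeR did (log2 1.63, adjusted p = 0.0225), as did DESeq2 (adjusted p = 0.000131).

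Stress protection genes were called about as often each way as all genes were, at 25.9% higher and 27% lower, except for fewer rises among antioxidant genes. Of 14 small heat shock protein genes, 4 rose and 4 fell (leave-out counts 4, 3, 3 and 2 higher, and 4, 3, 3 and 4 lower). The dauer and longevity gene hsp-12.6 measured 29.17 and 11.52 FPKM in post-dauers, against 867 and 936.2 FPKM in dauers (log2 -5.54 ± 0.54, limma adjusted p = 0.000409), and hsp-12.3 measured 4.83 and 4.24 FPKM in post-dauers, against 82.46 and 92.47 FPKM in dauers (log2 -4.0). In contrast, sip-1, a chaperone gene of the germ line and embryo, measured 5637 and 7381 FPKM in post-dauers, against 1809 and 1792 FPKM in dauers (log2 1.84 ± 0.19, limma adjusted p = 0.000474), and hsp-43 measured 172.6 and 176 FPKM in post-dauers, against 49.63 and 47.85 FPKM in dauers (log2 1.82). Of 20 antioxidant and metal stress genes, 3 rose and 6 fell (leave-out counts 5, 4, 2 and 2 higher, and 6, 5, 6 and 4 lower). The mitochondrial superoxide dismutase gene sod-3 measured 32.89 and 19.88 FPKM in post-dauers, against 157.3 and 168 FPKM in dauers (log2 -2.62 ± 0.33, limma adjusted p = 0.00107). The cytosolic one, sod-5, measured 6.89 and 3.16 FPKM in post-dauers, against 146.2 and 156.2 FPKM in dauers (log2 -4.73 ± 0.62, limma adjusted p = 0.0012), and the metallothionein gene mtl-1 measured 324.5 and 330.3 FPKM in post-dauers, against 2207 and 2122 FPKM in dauers (log2 -2.72). All 3 are known targets of DAF-16. The peroxiredoxin gene prdx-2 rose, at 1221 and 1501 FPKM in post-dauers, against 771.8 and 788.2 FPKM in dauers (log2 0.79).

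Sugar metabolism is set here beside the shares over all genes, 25.9% higher and 27% lower. Of 16 genes of the glyoxylate cycle, gluconeogenesis, trehalose and glycogen, 3 rose and 5 fell (leave-out counts 3, 4, 1 and 2 higher). The glyoxylate enzyme gene icl-1, which lets worms make sugar from fat, measured 75.9 and 64.19 FPKM in post-dauers, against 259.7 and 377.2 FPKM in dauers (log2 -2.15 ± 0.26, limma adjusted p = 0.000842). The trehalose synthase gene tps-2 measured 31.98 and 25.35 FPKM in post-dauers, against 131.2 and 166.1 FPKM in dauers (log2 -2.33), whereas the glycogen phosphorylase gene pygl-1 measured 416.5 and 358.7 FPKM in post-dauers, against 199.9 and 229.9 FPKM in dauers (log2 0.85). Of 19 glycolysis genes 5 rose and 1 fell (leave-out counts 3, 4, 3 and 3 higher, and 3 lower without post-dauer replicate 1). The glyceraldehyde phosphate dehydrogenase gene gpd-4 measured 178.5 and 229.8 FPKM in post-dauers, against 36.3 and 37.99 FPKM in dauers (log2 2.42 ± 0.16, limma adjusted p = 0.000147), and the aldolase gene aldo-1 measured 75.86 and 81.88 FPKM in post-dauers, against 215.2 and 273.6 FPKM in dauers (log2 -1.61 ± 0.19, limma adjusted p = 0.000809). Of 28 tricarboxylic acid cycle genes 9 rose and 5 fell, with leave-out counts of 7, 7, 5 and 6 higher and 3, 3, 2 and 0 lower. The isocitrate dehydrogenase gene idh-1 measured 343.9 and 392.3 FPKM in post-dauers, against 108.5 and 102.6 FPKM in dauers (log2 1.79). With quantile normalization these 3 lists had 3, 4 and 7 genes higher and 5, 7 and 10 lower, so the balance of the last 2 lists turned with the scaling.

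Fat genes also changed in both directions. Their counts, here and in beta-oxidation and fatty acid synthesis, stand beside 25.9% higher and 27% lower over all genes. Of 13 triglyceride and lysosomal lipase genes 5 rose and 2 fell (4 lower without post-dauer replicate 1). The lysosomal lipase gene lipl-1 measured 138.7 and 124.1 FPKM in post-dauers, against 9.35 and 10.71 FPKM in dauers (log2 3.59 ± 0.34, limma adjusted p = 0.000373), and lipl-5 measured 250.9 and 219.9 FPKM in post-dauers, against 41.04 and 40.87 FPKM in dauers (log2 2.49). The related lipl-4 measured 1.04 and 1.07 FPKM in post-dauers, against 11.61 and 15.08 FPKM in dauers (log2 -2.79 ± 0.25, limma adjusted p = 0.000335), and lipl-8 measured 0.05 and 0 FPKM in post-dauers, against 5.62 and 6.19 FPKM in dauers, with 1 and 0 reads in post-dauers. Lysosomal lipases of 1 family thus went in opposite directions. The fat droplet lipase gene atgl-1, whose protein is a known AMPK target, was at 41.94 and 47.64 FPKM in post-dauers, against 39.66 and 42 FPKM in dauers and was not called (log2 0.13 ± 0.17, limma adjusted p = 0.569). The fasting-induced lipase gene fil-1 rose, with post-dauers of 6.12 and 23.68 FPKM, against 0.37 and 0.58 in dauers.

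In beta-oxidation, 12 of 36 genes rose and 2 fell (leave-out counts 10, 10, 6 and 5 higher, and 4, 2, 2 and 2 lower). The acyl-CoA synthetase gene acs-2, a fasting gene, measured 2.18 and 2.66 FPKM in post-dauers, against 61.93 and 75.85 FPKM in dauers (log2 -4.35 ± 0.4, limma adjusted p = 0.000354), and the enoyl-CoA hydratase gene ech-7 measured 129.2 and 203.6 FPKM in post-dauers, against 20.28 and 25.66 FPKM in dauers (log2 2.78 ± 0.25, limma adjusted p = 0.000321). In fatty acid synthesis, desaturation and elongation, 11 of 27 rose and 3 fell (leave-out counts 9, 10, 4 and 5 higher, and 4, 2, 1 and 0 lower). The delta-9 desaturase gene fat-7 measured 16.91 and 24.48 FPKM in post-dauers, against 0 and 0.09 FPKM in dauers (log2 4.36 ± 0.32, limma adjusted p = 0.000188), and the elongase gene elo-6 measured 426.5 and 330.7 FPKM in post-dauers, against 119.2 and 128.1 FPKM in dauers (log2 1.6 ± 0.19, limma adjusted p = 0.000904). Nuclear genes of the respiratory chain stayed near the all-gene median, at 0.03 on the log2 scale, with 6 of 36 higher and 4 lower. The 4 lower calls changed to 20 with quantile normalization and 1 in edgeR.

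Genes on mitochondrial DNA had 7 of 14 members higher and 1 lower, against 25.9% and 27% of all genes. Most of them encode core subunits of the same respiratory complexes, and ribosomal RNA genes of that DNA were admitted to the list too. Reads of mitochondrial DNA took 1.57% and 1.71% of all reads in post-dauers, against 0.68% and 0.692% in dauers. Cytochrome b, ctb-1, measured 2603 and 2721 FPKM in post-dauers, against 708.1 and 696.7 FPKM in dauers (log2 1.92 ± 0.16, limma adjusted p = 0.000272). The cytochrome oxidase gene ctc-2 measured 2646 and 2980 FPKM in post-dauers, against 738.3 and 719.2 FPKM in dauers (log2 1.95 ± 0.2, limma adjusted p = 0.000493), and the ATP synthase gene atp-6 measured 2458 and 2248 FPKM in post-dauers, against 695.4 and 768.9 FPKM in dauers (log2 1.68). Post-dauers were high in all 3 and their replicates close. The complex I gene nduo-2 was the 1 called lower, at 89.28 and 116.2 FPKM in post-dauers, against 138.4 and 169.4 FPKM in dauers (log2 -0.58 ± 0.19, limma adjusted p = 0.0362). Its call was lost without post-dauer replicate 1 or either dauer replicate (adjusted p = 0.129, 0.0604 and 0.199) and in edgeR (log2 -0.41, adjusted p = 0.272) and DESeq2 (adjusted p = 0.544), and the leave-out counts of the list were 10, 6, 5 and 6 higher.

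Adult products rose by the largest factors. All 6 vitellogenin genes rose, whose yolk products come from the gut of the adult, with a median of 8.66 on the log2 scale. The gene vit-2 measured 1453 and 1070 FPKM in post-dauers, against 2.44 and 0.07 FPKM in dauers (log2 9.35 ± 0.49, limma adjusted p = 7.55e-05), and vit-6 measured 1414 and 991.7 FPKM in post-dauers, against 2.93 and 0.13 FPKM in dauers (log2 9.14 ± 0.53, limma adjusted p = 9.30e-05). The lowest, vit-1, measured 151.9 and 147 FPKM in post-dauers, against 0.25 and 0.02 FPKM in dauers. Near-identical copies, vit-3, vit-4 and vit-5 among them, may share reads, so their split is uncertain. All 5 uterine lumen protein genes rose, with a median of 7.49, and ule-4 measured 4245 and 3169 FPKM in post-dauers, against 22.84 and 19.53 FPKM in dauers (log2 7.37 ± 0.29, limma adjusted p = 3.80e-05). Of 11 adult cuticle genes 10 rose, among them col-19, at 995.9 and 1170 FPKM in post-dauers, against 6.86 and 0.11 FPKM in dauers (log2 8.52 ± 0.79, limma adjusted p = 0.000367), and col-7, at 36.36 and 49.77 FPKM in post-dauers, against 0 and 0.13 FPKM in dauers. These lists kept at least 9 of their members called with any of the 4 libraries left out for the adult cuticle and all members for yolk and uterus.

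Collagens of the cuticle as a whole split evenly, with 51 of 141 col genes higher and 51 lower, against 25.9% and 27% of all genes. Their leave-out counts were 48, 47, 46 and 46 higher but 34, 34, 27 and 25 lower. Of 29 moulting and larval cuticle genes 1 rose and 7 fell (leave-out counts 7, 3, 3 and 1 lower). The patched-related moulting gene ptr-11 measured 5.12 and 4 FPKM in post-dauers, against 17.38 and 20.73 FPKM in dauers (log2 -1.85 ± 0.23, limma adjusted p = 0.00101). The larval collagen genes rol-6, at 8.66 and 9.64 FPKM in post-dauers, against 18.88 and 16.81 FPKM in dauers, and dpy-5, at 51.91 and 51.83 FPKM in post-dauers, against 48.63 and 49.45 FPKM in dauers, were not called.

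Gut lists had more genes higher than lower. Of 23 intestine markers 12 rose and 3 fell, with a median of 1.00 on the log2 scale (leave-out counts 9, 10, 7 and 8 higher). The aspartyl protease gene asp-2 measured 677.9 and 645.8 FPKM in post-dauers, against 73.54 and 74.97 FPKM in dauers (log2 3.14 ± 0.25, limma adjusted p = 0.000233), and the cathepsin gene cpr-5 measured 209 and 142.8 FPKM in post-dauers, against 19.23 and 23.83 FPKM in dauers (log2 2.96 ± 0.36, limma adjusted p = 0.000919). The gut transcription factor gene elt-2 measured 11.6 and 10.47 FPKM in post-dauers, against 16.18 and 20.14 FPKM in dauers (log2 -0.66 ± 0.2, limma adjusted p = 0.0314). It was called lower, a call lost without post-dauer replicate 2 or either dauer replicate (adjusted p = 0.0771, 0.0677 and 0.2). The call was also lost with the replicate block, quantile normalization, the aak(0) libraries alone, either daf-2; hzl-1 post-dauer left out and DESeq2 (adjusted p 0.0565 to 0.104). Of 27 lysozymes, saposins and antimicrobial peptides, which digest and kill bacteria, 21 rose and 1 fell. The saposin gene spp-3 measured 1561 and 1301 FPKM in post-dauers, against 218.4 and 232.9 FPKM in dauers (log2 2.65 ± 0.17, limma adjusted p = 0.000132), and the lysozyme gene lys-8 measured 426.4 and 455.6 FPKM in post-dauers, against 75.67 and 72.94 FPKM in dauers (log2 2.55). The 1 that fell, lys-3, measured 7.62 and 9.37 FPKM in post-dauers, against 108 and 148.1 FPKM in dauers (log2 -3.75).

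**Figure D3:**
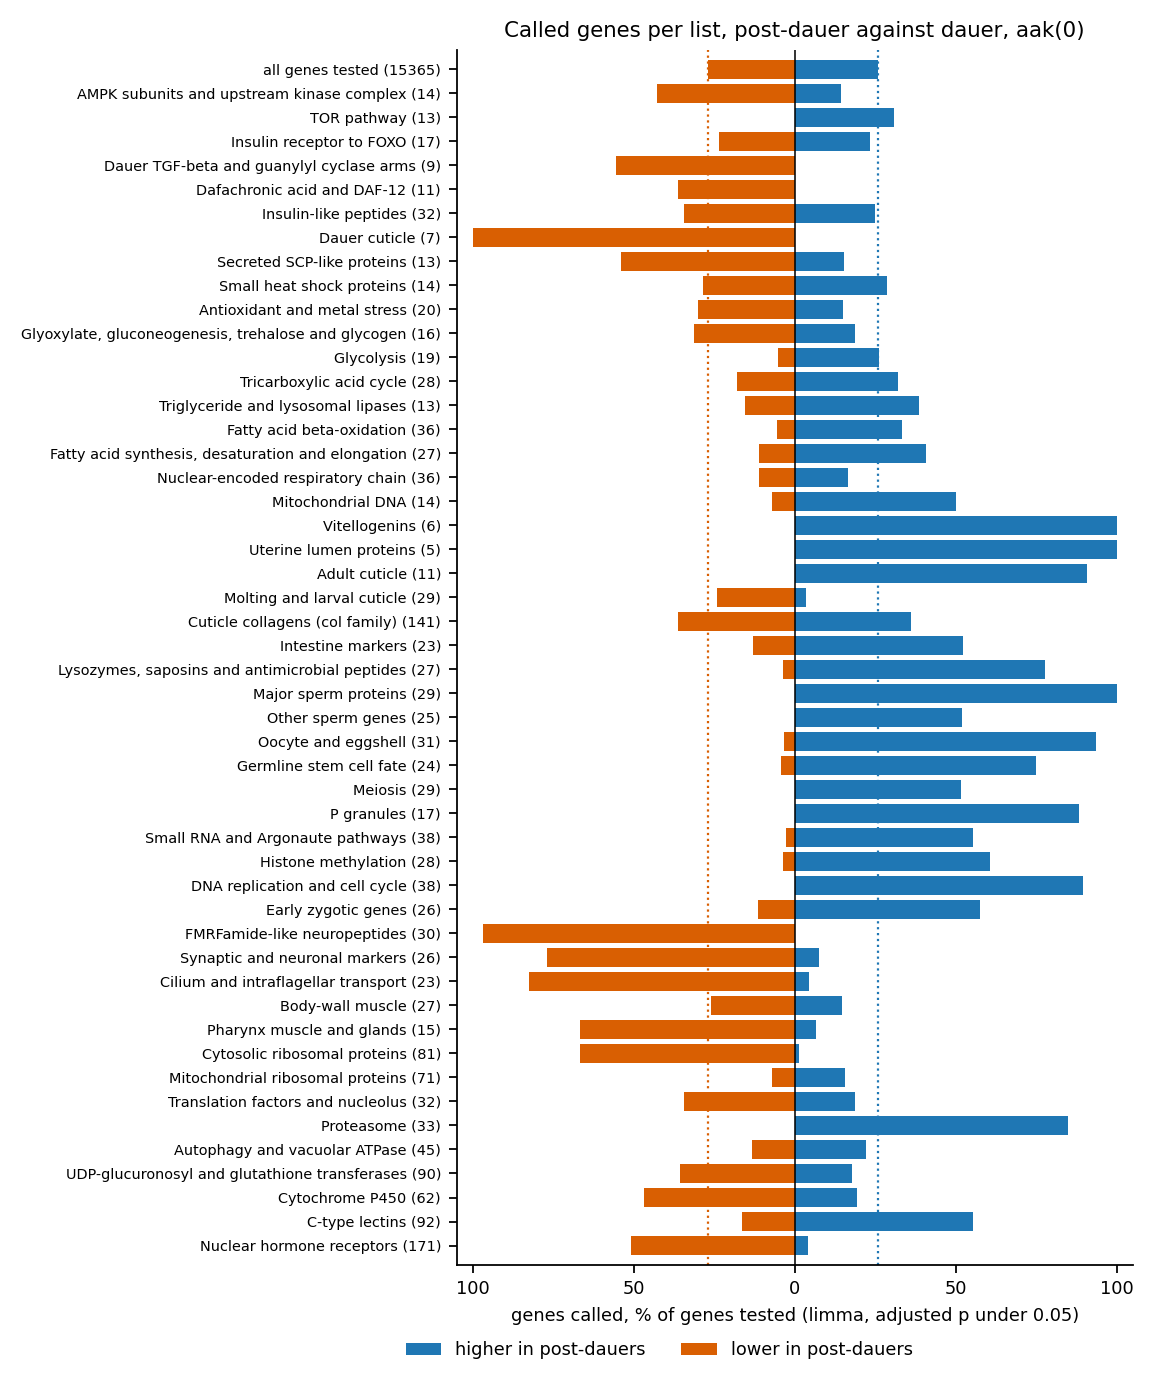
Percentage of tested genes called higher (right of 0) and lower (left of 0) in aak(0) post-dauers against dauers, for all 15365 genes and for each of 49 lists, with the number tested in brackets. Dotted lines mark the shares over all genes, 25.9% higher and 27% lower. Yolk, uterine and major sperm protein genes were all called higher, and the dauer cuticle genes were all called lower.

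Germline lists had far more genes higher than lower in post-dauers, though in several of them many members were not called. In whole animals, more germ cells and more transcript per germ cell cannot be told apart. All 29 major sperm protein genes tested rose, with a median of 2.71 on the log2 scale. The gene msp-113 measured 587.1 and 573 FPKM in post-dauers, against 45.61 and 46.32 FPKM in dauers (log2 3.63 ± 0.19, limma adjusted p = 7.29e-05). These copies are nearly identical and may share reads. Of 25 other sperm genes 13 rose and 0 fell (leave-out counts 9, 17, 5 and 6). Of 31 oocyte and eggshell genes 29 rose and 1 fell, and the median was 2.21. The eggshell barrier gene perm-2 measured 1219 and 1472 FPKM in post-dauers, against 7.41 and 2.91 FPKM in dauers (log2 7.87 ± 0.34, limma adjusted p = 4.85e-05), and the proteoglycan gene cpg-2 measured 1584 and 2020 FPKM in post-dauers, against 377.4 and 334.4 FPKM in dauers (log2 2.33 ± 0.18, limma adjusted p = 0.000205). The oocyte maturation factor gene oma-2 measured 284.6 and 343.4 FPKM in post-dauers, against 35.38 and 28.88 FPKM in dauers (log2 3.25), and mex-6, which sets embryo polarity, measured 253.7 and 269.4 FPKM in post-dauers, against 46.63 and 44.83 FPKM in dauers (log2 2.49). The dauers were far from empty of these transcripts, with cpg-2 above 300 FPKM in both.

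Genes of dividing and developing germ cells were also called mostly higher. Of 24 germline stem cell fate genes 18 rose and 1 fell (leave-out counts 15, 20, 11 and 11 higher). The translational repressor gene gld-1 measured 314.9 and 306.5 FPKM in post-dauers, against 79.58 and 79.43 FPKM in dauers (log2 1.95 ± 0.17, limma adjusted p = 0.000278). The Notch target gene sygl-1, a mark of germline stem cells, measured 97.83 and 99.06 FPKM in post-dauers, against 25.11 and 23.81 FPKM in dauers (log2 1.97 ± 0.14, limma adjusted p = 0.000183), and the nanos gene nos-2 measured 131.1 and 151.7 FPKM in post-dauers, against 35.74 and 36.33 FPKM in dauers (log2 1.94). The 1 that fell, the sex determination factor gene tra-1, measured 7.95 and 6.95 FPKM in post-dauers, against 18.49 and 24.26 FPKM in dauers (log2 -1.4). Of 38 DNA replication and cell cycle genes 34 rose and 0 fell, with a median of 1.43. The cyclin B gene cyb-1 measured 325.5 and 360.1 FPKM in post-dauers, against 84.64 and 81.42 FPKM in dauers (log2 2.03 ± 0.14, limma adjusted p = 0.000155), and the ribonucleotide reductase gene rnr-1 measured 189.6 and 172.2 FPKM in post-dauers, against 45.65 and 47.45 FPKM in dauers (log2 1.93 ± 0.13, limma adjusted p = 0.000155). Of 29 meiosis genes 15 rose and 0 fell (leave-out counts 13, 22, 11 and 10), with the axis gene htp-1 at 88.41 and 109.7 FPKM in post-dauers, against 34.38 and 36.08 FPKM in dauers (log2 1.46).

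Germ granule and small RNA genes followed. Of 17 P granule genes 15 rose and 0 fell, and the granule gene meg-1 measured 66.88 and 68.08 FPKM in post-dauers, against 10.53 and 9.61 FPKM in dauers (log2 2.63 ± 0.19, limma adjusted p = 0.000188). Of 38 small RNA and Argonaute genes 21 rose and 1 fell. Their leave-out counts were 15, 31, 13 and 11 higher, and 8 were lower without post-dauer replicate 1. In this list 12 of 38 genes were more than 2 times higher in post-dauer replicate 1 than in replicate 2, against 13.8% of all genes, and 0 the other way. The Argonaute gene wago-1 measured 255.3 and 240.8 FPKM in post-dauers, against 75.09 and 76.62 FPKM in dauers (log2 1.7 ± 0.14, limma adjusted p = 0.000258), and the nuclear Argonaute gene hrde-1, which carries silencing across generations, measured 165.9 and 143.6 FPKM in post-dauers, against 49.1 and 50.96 FPKM in dauers (log2 1.61 ± 0.21, limma adjusted p = 0.0011). Of 28 histone methylation genes 17 rose and 1 fell (leave-out counts 13, 22, 9 and 9 higher, and 6 lower without post-dauer replicate 1). The H4 lysine methyltransferase gene set-1 measured 168.4 and 136.9 FPKM in post-dauers, against 51.8 and 47.17 FPKM in dauers (log2 1.6).

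Transcripts of the embryo appeared with them. Of 26 early zygotic genes that passed the filter, from 53 matched, 15 rose and 3 fell, against 25.9% and 27% of all genes. Genes near 0 in dauers, such as vet-6 and sdz-9 below, passed largely through the post-dauers. The filter thus favours rises in this list. The early zygotic gene vet-6 measured 8.79 and 7.45 FPKM in post-dauers, against 0.33 and 0.07 FPKM in dauers (log2 2.93 ± 0.22, limma adjusted p = 0.000202). Post-dauers were several-fold above 1 FPKM and dauers below it, and sdz-9 gave the same picture with 5.2 and 4.49 FPKM in post-dauers, against 0.13 and 0 FPKM in dauers. The caudal homeobox gene pal-1, supplied by the mother and used in the embryo, measured 128.4 and 101.4 FPKM in post-dauers, against 37.46 and 39.9 FPKM in dauers (log2 1.54). Post-dauer hermaphrodites can carry embryos, and the labels do not say whether these did.

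Neuronal transcripts made up a lower share of post-dauer RNA. Of 30 FMRFamide-like neuropeptide genes 0 rose and 29 fell, with a median of -2.66 on the log2 scale, and 29 were called lower in each leave-out. The neuropeptide gene flp-11, known for its role in sleep, measured 22.93 and 23.32 FPKM in post-dauers, against 130.9 and 123.1 FPKM in dauers (log2 -2.41 ± 0.17, limma adjusted p = 0.000179), and flp-19 measured 7.67 and 8.45 FPKM in post-dauers, against 77.37 and 81.61 FPKM in dauers (log2 -3.15 ± 0.15, limma adjusted p = 6.22e-05). The peptide-processing genes egl-3, at 21.75 and 19.2 FPKM in post-dauers, against 258.9 and 343.8 FPKM in dauers (log2 -3.8 ± 0.26, limma adjusted p = 0.000157), and sbt-1, at 61.07 and 60.76 FPKM in post-dauers, against 448.2 and 519.5 FPKM in dauers (log2 -2.96), fell with them. Of 26 synaptic and neuronal markers 2 rose and 20 fell. The 2 that rose were tbh-1, at 124 and 115.5 FPKM in post-dauers, against 0.78 and 0.49 FPKM in dauers (log2 6.21 ± 0.23, limma adjusted p = 3.80e-05), and tdc-1, at 140.7 and 163.5 FPKM in post-dauers, against 21.69 and 17.51 FPKM in dauers (log2 2.9 ± 0.2, limma adjusted p = 0.000155). They encode the enzymes of octopamine and tyramine synthesis and are known also from gonadal sheath or uterine cells of the adult. Fewer neurons per unit of RNA and less transcript per neuron cannot be told apart here.

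Cilium genes, which serve the sensory neurons, had 1 of 23 higher and 19 lower (leave-out counts 18, 10, 8 and 5 lower). Pharynx muscle and gland genes had 1 of 15 higher and 10 lower (leave-out counts 4, 8, 4 and 5 lower). Of 27 body-wall muscle genes 4 were higher and 7 lower, against 25.9% and 27% of all genes (leave-out counts 2, 2, 2 and 2 higher, and 8, 6, 6 and 4 lower). The myosin genes unc-54, at 86.68 and 95.45 FPKM in post-dauers, against 349.2 and 386.6 FPKM in dauers (log2 -2.0 ± 0.21, limma adjusted p = 0.00053), and myo-3, at 18.06 and 16.18 FPKM in post-dauers, against 68.88 and 73.95 FPKM in dauers (log2 -2.0), and the muscle determination gene hlh-1 (log2 -2.03) all fell.

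Growth and turnover lists are set beside the shares over all genes, 25.9% higher and 27% lower. The mitochondrial ribosomal list and the autophagy and vacuolar ATPase list lay below both shares. Cytosolic ribosomal protein genes had 1 of 81 higher and 54 lower, with a median of -0.79 on the log2 scale. Their median level was 2321 and 3271 FPKM in post-dauers, against 4610 and 5378 FPKM in dauers. The count depended on the tool and the libraries, since edgeR called 6 lower with a median of -0.73 and leave-out counts were 11, 69, 19 and 3. The gene rpl-24.2 measured 210.1 and 254.3 FPKM in post-dauers, against 787.7 and 845 FPKM in dauers (log2 -1.81 ± 0.2, limma adjusted p = 0.000613), and rpl-41.1, the 1 higher, measured 788.5 and 1020 FPKM in post-dauers, against 293.9 and 322 FPKM in dauers (log2 1.54). Of 33 proteasome genes 28 rose and 0 fell (leave-out counts 29, 23, 15 and 19, and 17 in edgeR), with a median of 0.68. The core subunit gene pas-5 measured 438.7 and 512.2 FPKM in post-dauers, against 225.4 and 232.3 FPKM in dauers (log2 1.05 ± 0.14, limma adjusted p = 0.0012). Of 71 mitochondrial ribosomal protein genes 11 rose and 5 fell (leave-out counts 17, 6, 2 and 3 higher, and 5 higher in edgeR). Of 32 translation factor and nucleolus genes 6 rose and 11 fell (2 and 5 in edgeR). Of 45 autophagy and vacuolar ATPase genes 10 rose and 6 fell (leave-out counts 5, 10, 3 and 3 higher, and 11, 5, 5 and 5 lower). The autophagy master regulator gene hlh-30 (TFEB) measured 25.73 and 25.01 FPKM in post-dauers, against 73.05 and 83.19 FPKM in dauers (log2 -1.58 ± 0.15, limma adjusted p = 0.000391), and the cargo receptor gene sqst-1 measured 49.79 and 55.38 FPKM in post-dauers, against 144.2 and 159.7 FPKM in dauers (log2 -1.51). The vacuolar ATPase gene vha-12 rose, at 322 and 299.9 FPKM in post-dauers, against 136.9 and 165 FPKM in dauers (log2 1.04).

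Nuclear hormone receptors, a family of ligand-regulated transcription factors much expanded in nematodes, were mostly lower. Over all genes, 25.9% were called higher and 27% lower. Of 171 that passed the filter, from 267 matched, 7 rose and 87 fell (leave-out counts 103, 67, 51 and 45 lower), with a median of -0.88. The gene nhr-88 measured 20.21 and 19.57 FPKM in post-dauers, against 89.55 and 86.7 FPKM in dauers (log2 -2.09 ± 0.19, limma adjusted p = 0.000321), and nhr-2 measured 15.61 and 14.85 FPKM in post-dauers, against 1.41 and 1.28 FPKM in dauers (log2 2.79). Of 62 cytochrome P450 genes 12 rose and 29 fell, with cyp-13B1 at 3.35 and 2.48 FPKM in post-dauers, against 151.2 and 196.9 FPKM in dauers (log2 -5.48 ± 0.29, limma adjusted p = 8.04e-05). Of 90 UDP-glucuronosyl and glutathione transferase genes, which attach sugars or glutathione to toxins, 16 rose and 32 fell (leave-out counts 14, 17, 8 and 8 higher, and 37, 26, 23 and 21 lower). The transferase gene ugt-27 measured 0.35 and 0.08 FPKM in post-dauers, against 32.89 and 40.62 FPKM in dauers (log2 -4.96 ± 0.28, limma adjusted p = 8.63e-05). C-type lectins, secreted sugar-binding proteins of gut and immunity, went the other way, with 51 of 92 higher and 15 lower, and clec-41 measured 128 and 135.4 FPKM in post-dauers, against 8.36 and 6.35 FPKM in dauers (log2 4.0 ± 0.2, limma adjusted p = 7.21e-05).

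The same stage change was measured in daf-2; hzl-1, which keeps both catalytic subunits. There 6060 genes were called higher (39.4%) and 4275 lower (27.8%). Of the genes higher in aak(0), 89.9% were higher in daf-2; hzl-1 too, and they were 59% of the genes higher there. Of the genes lower in aak(0), 80% were lower in daf-2; hzl-1, or 77.7% of the genes lower there. The change in aak(0) minus the change in daf-2; hzl-1 was tested for every gene in the same limma fit. It was called in 1743 genes (11.3%), positive in 544 (3.54%) and negative in 1199 (7.8%). The median difference over all genes was -0.34 on the log2 scale, so the median gene had a lower change in aak(0). With quantile normalization that median was 0.02, and 1297 differences were positive and 1113 negative, so the balance between the directions depended on the scaling. Leave-out counts were 3947, 1338, 352 and 424. EdgeR called 891 positive and 1328 negative.

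Of the 1199 negative differences, 763 were genes higher in post-dauers of both strains, and 315 were higher in daf-2; hzl-1 without a call in aak(0). Over the 1199 genes, the aak(0) level exceeded that of daf-2; hzl-1 by a median of 2.07 (log2) in dauers and was within 0.01 of it in post-dauers. The strains thus differed in these genes mainly as dauers. The daf-2; hzl-1 dauer replicates were themselves apart, with a Spearman correlation of 0.939 and 10.7% of genes more than 2 times apart. Of these, 197 genes were higher in replicate 1 and 1444 in replicate 2. Reads of rRNA took 12.8% and 3.49% of them. The median difference over all genes was -0.21 without daf-2; hzl-1 dauer replicate 1 and -0.47 without replicate 2. Of the 544 positive differences, 212 were genes lower in both strains, 169 were lower in daf-2; hzl-1 without a call in aak(0), and 90 were higher in aak(0) without a call in daf-2; hzl-1. Their median gap between strains was -0.70 in dauers and 1.03 in post-dauers.

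**Figure D4:**
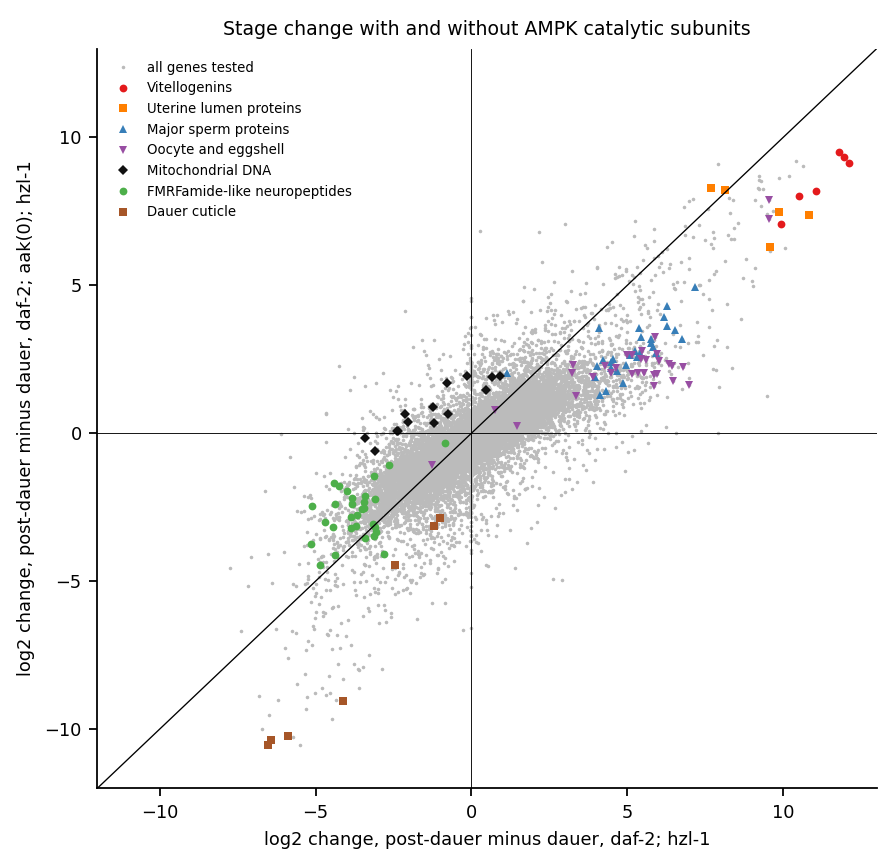
Log2 change from dauer to post-dauer in aak(0) (vertical axis) against that in daf-2; hzl-1 (horizontal axis) for all tested genes, with 7 lists in colour and a line where both changes are equal. Most oocyte and major sperm protein genes lie below the line on the side of rises, and the 14 genes of mitochondrial DNA lie above it.

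Germline lists held many of the smaller rises. Their counts, here and in the next paragraph, stand beside 3.54% positive and 7.8% negative differences over all genes. Of 31 oocyte and eggshell genes, 25 had a negative difference and 0 a positive one, with 25 to 26 negative in each leave-out of an aak(0) library. Their median level was 293.5 and 321.2 FPKM in aak(0) post-dauers, against 76.34 and 74.4 FPKM in aak(0) dauers. In daf-2; hzl-1 it was 355 and 356.9 FPKM in post-dauers, against 4.83 and 4.56 FPKM in dauers. Post-dauers of the strains were thus close, while aak(0) dauers stood far above the daf-2; hzl-1 dauers. The gene cpg-2 measured 1762 and 1695 FPKM in post-dauers of daf-2; hzl-1, against 18.02 and 22.69 FPKM in its dauers, and its change differed by log2 -4.02 ± 0.26, limma adjusted p = 0.0017. For mex-6 the values were 235.2 and 237.1 FPKM in post-dauers of daf-2; hzl-1, against 4.02 and 3.86 FPKM in its dauers (log2 -3.1 ± 0.18, limma adjusted p = 0.0017). For gld-1 they were 385.9 and 340.2 FPKM in post-dauers of daf-2; hzl-1, against 17.48 and 13.22 FPKM in its dauers (log2 -2.53 ± 0.23, limma adjusted p = 0.00267).

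Of 29 major sperm protein genes, 25 had a negative difference (leave-out counts 22, 16, 12 and 13). For msp-113 the values were 443.9 and 310.4 FPKM in post-dauers of daf-2; hzl-1, against 3.83 and 3.74 FPKM in its dauers (log2 -2.65 ± 0.26, limma adjusted p = 0.00318). Of 38 DNA replication and cell cycle genes 16 had a negative difference (leave-out counts 20, 10, 3 and 3, and 6 in edgeR). Of 17 P granule genes 10 had one (leave-out counts 11, 8, 3 and 4, and 6 in edgeR). The stem cell target sygl-1 measured 105.8 and 94.03 FPKM in post-dauers of daf-2; hzl-1, against 9.89 and 9.34 FPKM in its dauers (log2 -1.28 ± 0.2, limma adjusted p = 0.013). Of 38 small RNA genes 7 had a negative difference, a count of 22 without post-dauer replicate 1, 4 without replicate 2 and 2 without either dauer replicate.

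Yolk genes differed as well, but at the post-dauer end. Negative differences were called in 7.8% of all genes. Of 6 vitellogenins 4 had a negative difference, 1 of them in edgeR, and 6 with quantile normalization. The gene vit-3 measured 2360 and 2671 FPKM in post-dauers of daf-2; hzl-1, against 0.18 and 0.21 FPKM in its dauers (log2 -2.85 ± 0.23, limma adjusted p = 0.00187), and vit-1 measured 988.3 and 1040 FPKM in post-dauers of daf-2; hzl-1, against 0.01 and 0.09 FPKM in its dauers (log2 -2.86 ± 0.25, limma adjusted p = 0.0023). Vitellogenin medians were 836.9 and 662.9 FPKM in aak(0) post-dauers, against 0.785 and 0.075 FPKM in aak(0) dauers, whereas daf-2; hzl-1 had 3279 and 3760 FPKM in post-dauers, against 0.215 and 0.23 FPKM in dauers. Uterine genes had 2 of 5 negative differences. For ule-4 the values were 1958 and 2665 FPKM in post-dauers of daf-2; hzl-1, against 0.63 and 0 FPKM in its dauers (log2 -3.43 ± 0.41, limma adjusted p = 0.00523), so the dauers of the strains lay furthest apart.

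Differences were negative in 7.8% and positive in 3.54% of all genes. Gut and cuticle lists had further negative differences. They were found in 11 of 23 intestine markers (leave-out counts 14, 7, 3 and 2) and 8 of 27 lysozyme, saposin and peptide genes (leave-out counts 8, 6, 3 and 3). The protease gene asp-2 measured 548.8 and 602.3 FPKM in post-dauers of daf-2; hzl-1, against 0.86 and 2.25 FPKM in its dauers (log2 -4.73 ± 0.36, limma adjusted p = 0.00172), and cpr-5 measured 307.2 and 319.3 FPKM in post-dauers of daf-2; hzl-1, against 0 and 1.07 FPKM in its dauers (log2 -4.82 ± 0.51, limma adjusted p = 0.00374). Of 141 col genes 37 had a negative and 3 a positive difference (10 negative without dauer replicate 1), and of 29 moulting genes 5 and 0. The collagen gene dpy-5 measured 72.01 and 35.42 FPKM in post-dauers of daf-2; hzl-1, against 0.09 and 0.31 FPKM in its dauers (log2 -5.35 ± 0.46, limma adjusted p = 0.00218). In aak(0) it stood near 50 FPKM in all 4 libraries. The 2 daf-2; hzl-1 dauers, the low group in many of these genes, did not agree for dauer cuticle. None of the 7 dauer cuticle genes had a called difference in limma or edgeR, and their median difference in limma was -3.93. That median was -0.87 without daf-2; hzl-1 dauer replicate 1 and -6.99 without replicate 2, so the result depended on these libraries. In the same fits the median of the col genes was -1.01 and -2.92, against -2.24. That of the moulting genes was -0.86 and -2.88, against -1.77.

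**Figure D5:**
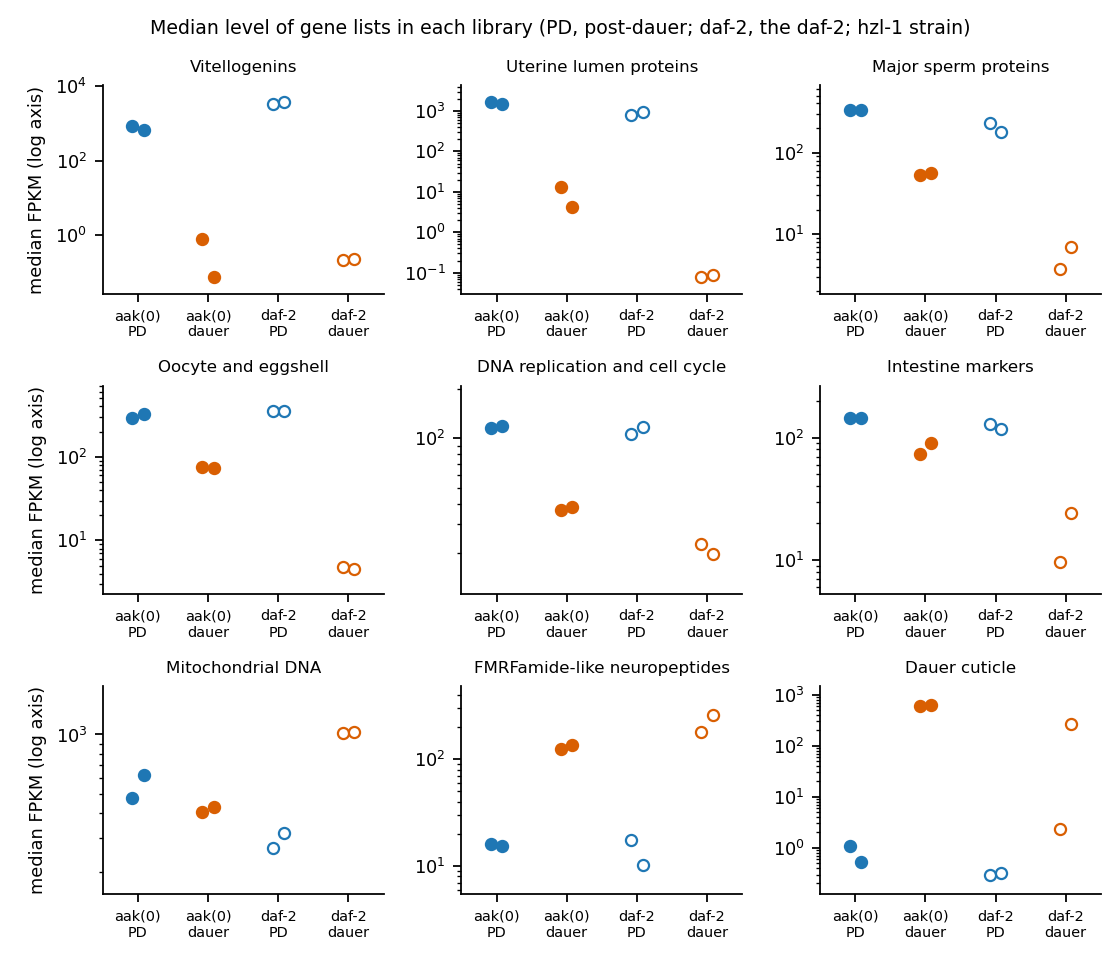
Median FPKM, on log axes, of 9 gene lists in each of the 8 libraries, 1 point per library, with aak(0) post-dauers and dauers to the left of daf-2; hzl-1 post-dauers and dauers in every panel. Oocyte genes are at 76.34 and 74.4 FPKM in aak(0) dauers, against 4.83 and 4.56 FPKM in daf-2; hzl-1 dauers, while post-dauers lie close together.

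Of all genes tested, 7.8% had a negative difference and 3.54% a positive one. Positive differences gathered in other lists. All 14 genes of mitochondrial DNA had one, with a median of 2.28 on the log2 scale (leave-out counts 14, 11, 6 and 6, and 12 in edgeR). For ctc-2 the values were 1363 and 1955 FPKM in post-dauers of daf-2; hzl-1, against 1726 and 1880 FPKM in its dauers (log2 2.09 ± 0.28, limma adjusted p = 0.00802). For nduo-2 they were 49.21 and 55.68 FPKM in post-dauers of daf-2; hzl-1, against 479.4 and 427.9 FPKM in its dauers (log2 2.51 ± 0.26, limma adjusted p = 0.00374). The share of reads from mitochondrial DNA was 1.02% and 1.27% in the post-dauers of daf-2; hzl-1, against 1.64% and 1.53% in its dauers, the reverse of the order in aak(0). Of 30 FMRFamide-like peptide genes 12 had a positive difference and 0 a negative one (leave-out counts 13, 9, 2 and 3). For flp-1, which measured 23.04 and 26.69 FPKM in post-dauers, against 148.8 and 131.4 FPKM in dauers of aak(0), they were 25.86 and 14.67 FPKM in post-dauers of daf-2; hzl-1, against 766.5 and 641.4 FPKM in its dauers (log2 2.65 ± 0.38, limma adjusted p = 0.00917). Of 32 insulin-like peptide genes 9 had a positive and 1 a negative difference (leave-out counts 12, 5, 0 and 0 positive).

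The TGF-beta ligand gene daf-7 differed by log2 3.36 ± 0.37, limma adjusted p = 0.00406, and measured 1.53 and 1.24 FPKM in post-dauers of daf-2; hzl-1, against 42.12 and 28.2 FPKM in its dauers. It stayed within 6.84 to 12.25 FPKM in all 4 aak(0) libraries, and fell in daf-2; hzl-1. Of 26 early zygotic genes 8 had a positive and 2 a negative difference (leave-out counts 9, 7, 2 and 2 positive), but the median of the list was 0.60 in limma and -0.33 in edgeR, where 2 were positive. Of all genes tested, 3.54% had a positive and 7.8% a negative difference. In the fit limited to a mean of at least 5 FPKM, 8 early zygotic genes remained. Of these, 0 had a positive and 2 a negative difference, and their median was -0.60. For vet-6 the values were 0.26 and 0.31 FPKM in post-dauers of daf-2; hzl-1, against 0 and 0 FPKM in its dauers, all 4 below the aak(0) post-dauers. The difference was log2 2.57 ± 0.32, limma adjusted p = 0.00601, but fitted values were negative in edgeR (log2 -1.65) and DESeq2 (log2 -0.39), so its sign depended on the tool. Among AMPK genes, aak-1 differed by log2 -1.86 ± 0.34, limma adjusted p = 0.0196, with 8.75 and 8.59 FPKM in post-dauers of daf-2; hzl-1, against 3.1 and 3.19 FPKM in its dauers, and aakb-1 differed by log2 1.19 ± 0.28, limma adjusted p = 0.0429. The aakb-1 difference was not called with the replicate block, with no filter or with any library left out. That of aak-1 was not called with quantile normalization, nor without either aak(0) dauer or either daf-2; hzl-1 post-dauer.

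Called differences were ranked by size in the same way, with a mean of at least 5 FPKM and at most 2 genes per name stem. The most positive were those of nlp-39, sls-2.5, hil-3, his-24 and pes-2.2. The neuropeptide-like gene nlp-39 measured 373.3 and 365.1 FPKM in post-dauers, against 3.53 and 1.43 FPKM in dauers of aak(0), and 2.25 and 5.32 FPKM in post-dauers of daf-2; hzl-1, against 0 and 0 FPKM in its dauers. The linker histone gene hil-3 measured 176.4 and 175 FPKM in post-dauers, against 137 and 187.8 FPKM in dauers of aak(0), and 20.79 and 18.72 FPKM in post-dauers of daf-2; hzl-1, against 274 and 370.9 FPKM in its dauers (log2 4.08 ± 0.3, limma adjusted p = 0.00172). Another linker histone gene, his-24, measured 307.2 and 300.7 FPKM in post-dauers, against a mean of 100.9 ± 15.64 (SD, n = 2) in dauers of aak(0), and 19.71 and 20.2 FPKM in post-dauers of daf-2; hzl-1, against 81.47 and 140.3 FPKM in its dauers (log2 3.96 ± 0.37, limma adjusted p = 0.00267). Both histone genes fell in daf-2; hzl-1, while in aak(0) hil-3 was not called and his-24 rose. The values of sls-2.5 rest on 1 and 4 reads in aak(0) post-dauers and 1 and 0 in dauers, and those of pes-2.2 on 9 and 13 against 1 and 0, so neither carries a level.

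On the same ranking, the most negative differences were those of pud-2.1, pud-3, col-17, cnc-5 and sdz-24. The gene pud-2.1, named for a protein abundant in daf-2 mutants, measured 961.7 and 773 FPKM in post-dauers, against 278.3 and 474 FPKM in dauers of aak(0), and 836.3 and 1368 FPKM in post-dauers of daf-2; hzl-1, against 1.27 and 0 FPKM in its dauers (log2 -8.23 ± 0.64, limma adjusted p = 0.00178). It has near-identical copies that may share its reads. The collagen gene col-17 measured 16.47 and 14.64 FPKM in post-dauers, against 37.57 and 41.12 FPKM in dauers of aak(0), and 46.09 and 20.75 FPKM in post-dauers of daf-2; hzl-1, against 0 and 0.12 FPKM in its dauers (log2 -6.2 ± 0.51, limma adjusted p = 0.00191). The antimicrobial caenacin gene cnc-5 measured 1.08 and 0 FPKM in post-dauers, against 31.34 and 34.65 FPKM in dauers of aak(0), and 19.62 and 15.1 FPKM in post-dauers of daf-2; hzl-1, against 2.49 and 12.68 FPKM in its dauers (log2 -5.96 ± 0.92, limma adjusted p = 0.0115). All 3 were clearly present in aak(0) dauers, and pud-2.1 and col-17 were near 0 in daf-2; hzl-1 dauers.

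Chromosomes took unequal parts. On X, 17.5% of 2096 tested genes were called higher and 39.1% lower, and on V 20.6% and 34.5% of 3165. On I, by comparison, 29.5% of 2488 genes were higher and 19.2% lower, and chromosomes II, III and IV had 28.6% to 29.8% higher. Median log2 changes were -0.53 on X, -0.29 on V and 0.26 on I. In daf-2; hzl-1, 24% of X genes were higher and 39.5% lower, against 47.3% and 20.8% on I, so X and I stood in the same order there. Germline genes are known to be scarce on the X, and its part in these shares was not tested. Among 57 long intergenic noncoding RNAs tested, 7 rose and 23 fell.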

How the data were processed

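RNA was measured by sequencing of poly(A)-selected libraries of whole animals, 2 for each of 4 groups. Whether replicates are separate cultures is not stated, and p-values therefore cover the spread between these libraries only, which may be technical. FPKM values per gene were made and deposited by the authors, and the submitters' processing notes name Trimmomatic 0.35, STAR 2.7.1a, RSEM, DESeq2 1.30.1 and build WBcel235. The authors also deposited read counts divided by 1 size factor per library (unit signal), log2 fold changes, score columns (errors and spreads, not used here) and p-values with adjusted p-values, per the file headers.

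Log2(FPKM + 1) of the 15365 genes with a mean of at least 1 FPKM over the 8 libraries was fitted with limma 3.58.1 in R 4.3.3, with a mean per group and no block. P-values were adjusted by Benjamini-Hochberg over all tested genes and called under 0.05. Fold changes on this scale understate changes of low genes, and ± values beside them are standard errors. Whole reads were recovered from the size-factor-divided values (100% whole within 0.001 reads) and tested with edgeR 4.0.16 and DESeq2 1.42.0 as alternatives. Other alternatives were a pseudocount of 0.1, other filters, quantile normalization, a replicate block, the aak(0) libraries alone and each library left out. The fit was also run on simulated data, with the same spread in all libraries and no difference with gene length between replicates. The aak(0) post-dauer replicates did differ with length, so that run does not vouch for the calls here.

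The members and the 49 lists were chosen with earlier results of these data known. Of 842 symbols listed by name, 25 were not matched. Named genes were the 6 largest rises and 6 largest falls (named genes with a mean of at least 5 FPKM, at most 2 per name stem), the 5 largest differences each way, any member of lists of up to 14 genes, and in longer lists the 3 smallest adjusted p-values each way and the 2 highest levels. The 4 mutated genes were always named, and 1 gene that the rule allows is not reported here. Exon lengths and opposite-strand overlaps came from an Ensembl annotation matched by gene ID. No sequence was used here.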

Additional observations from a re-analysis of the deposited data

Results flagged for a closer look

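The change from dauer to post-dauer differed between aak(0) and daf-2; hzl-1 in 60 of the named genes, by the limma test of the difference itself at an adjusted p under 0.05. Over all tested genes the share was 11.3%. Some named genes were chosen by this same test and others by level or p-value, so the count cannot be compared with that share. Each value is the log2 change in aak(0) minus that in daf-2; hzl-1. Where a group is listed at or near 0 FPKM the value rests on the pseudocount. Among oocyte, eggshell and germline genes the differences were -4.02 for cpg-2, -3.1 for mex-6, -2.63 for oma-2, -2.53 for gld-1, -3.78 for nos-2, -1.28 for sygl-1, -3.22 for meg-1, -2.42 for hrde-1 and -2.62 for wago-1. Among sperm, cell cycle and embryo genes the differences were -2.65 for msp-113, -1.25 for cyb-1, -1.68 for rnr-1, -1.9 for pal-1, 2.57 for vet-6, 2.02 for sdz-9, -5.79 for sdz-24 and 3.62 for pes-2.2. Among yolk and uterine genes the differences were -2.86 for vit-1, -2.85 for vit-3, -2.5 for vit-4, -2.28 for vit-5 and -3.43 for ule-4. Among gut and secreted protein genes the differences were -4.73 for asp-2, -4.82 for cpr-5, -4.76 for spp-3, -5.96 for cnc-5, -2.05 for scl-11, -3.29 for scl-12, -2.82 for scl-13, -8.23 for pud-2.1 and -6.39 for pud-3. Among collagen genes the differences were -6.2 for col-17, -5.35 for dpy-5 and -4.85 for rol-6. Among mitochondrial DNA genes the differences were 2.48 for atp-6, 1.01 for ctb-1, 2.09 for ctc-2 and 2.51 for nduo-2. Among neuronal and peptide genes the differences were 2.65 for flp-1, 1.97 for flp-11, 1.28 for flp-19, 4.62 for nlp-39, 1.35 for ins-7, 3.36 for daf-7 and -2.11 for tdc-1. Among metabolic and stress genes the differences were -2.14 for elo-6, -1.06 for gpd-4, -1.96 for idh-1, -2.06 for lipl-1, -1.63 for lipl-4, -1.97 for pygl-1, -3.63 for sod-5 and -1.77 for cyp-13B1. Among AMPK genes the differences were -1.86 for aak-1 and 1.19 for aakb-1. Among muscle, histone and spliced-leader genes the differences were -2.67 for myo-3, 1.45 for hlh-1, 4.08 for hil-3, 3.96 for his-24 and 4.58 for sls-2.5.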

How the results depend on the processing

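Counts of genes called for the stage change kept within 1.5 times of 8130 under each change of pseudocount, filter, scaling, block and tool. The difference between strains depended more on these choices. Its positive calls numbered 1297 with quantile normalization, 891 in edgeR, 1048 in DESeq2 and 307 with the replicate block, against 544. With the block, negative calls numbered 737 and all difference calls 1044, against 1199 and 1743, and 7475 stage calls were made. Replicate numbers did not pair the aak(0) libraries (correlation of deviations -0.0623). Leaving out 1 library of the 8 gave 5004 to 8742 stage calls, 2437 to 4796 higher and 2567 to 4797 lower, and 352 to 3947 difference calls, 84 to 736 positive and 268 to 3211 negative. The difference for ins-7 reversed with pseudocount 0.1 (-0.5954), in edgeR (-2.432) and in DESeq2 (-1.133), and that for vet-6 in edgeR (-1.645) and in DESeq2 (-0.3926). In both genes 1 or more dauer groups are near 0, and the cause was not tested. Of 141 named genes, 122 were called for the stage change, and calls lost numbered 1 in edgeR, 6 in DESeq2, 3 with pseudocount 0.1, 2 with quantile normalization and 11 without either aak(0) dauer library. No called stage change of a named gene reversed sign under these settings. Genes with few reads, such as cnc-5, sls-2.5 and pes-2.2, are limited by depth.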

Other observations

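Gene families sharing a name stem were counted after their values were seen, in families with at least 10 tested genes, and no test was made of them. Over all genes, 25.9% were higher and 27% lower in aak(0), 39.4% were higher in daf-2; hzl-1, and 3.54% had a positive difference. Among families of the nervous system, 27 of 33 lgc genes (ligand-gated ion channels) fell and 0 rose, as did 12 of 13 acr genes (acetylcholine receptor subunits), 27 of 31 npr genes (neuropeptide receptors) and 25 of 33 twk genes (potassium channels). Of 32 glb genes, which encode globins, 30 fell. Of 27 pals genes, known from the response to intracellular pathogens, 20 fell, and of 12 grd genes, relatives of hedgehog, 10 fell. Among families that rose, 18 of 24 npp genes (nuclear pore proteins), 9 of 11 rpb genes (RNA polymerase II subunits), 17 of 18 nspc genes (nematode-specific peptides) and 10 of 13 algn genes (protein glycosylation) were higher, with 0 lower. Of 13 fbxb genes, which encode F-box proteins, 10 rose in aak(0) and 4 in daf-2; hzl-1, and 38.5% had a called positive difference. Of 14 sdz genes, named as zygotic targets of SKN-1, 10 rose in aak(0) and 4 in daf-2; hzl-1, and 42.9% had a called positive difference. These family shares are from limma alone. In the early zygotic list, which includes sdz-9, positive differences numbered 8 in limma, 2 in edgeR and 0 with pseudocount 0.1. They also numbered 0 in the fit limited to a mean of at least 5 FPKM.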
